A study of Mus musculus with 10 samples.

Results

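The Nduf genes are the nuclear genes of mitochondrial complex I that carry this symbol root. They were taken as every gene of the count table whose mouse symbol starts with Nduf and that RefSeq does not list as a pseudogene, which gave 46 of 22553 genes. Of the 46, 7 are core subunits, 29 accessory subunits and 8 assembly factors, and the remaining 2 (Ndufa4 and Ndufa4l2) are no stable complex I subunits. Poly(A) RNA was sequenced from regulatory T cells (Treg), a CD4 T cell lineage defined by Foxp3 that holds immune responses in check. Cells positive for YFP were sorted out of the spleens and lymph nodes of C57BL/6 females that were littermates, with 2 to 3 mice combined for each library. The 3 knockout (KO) libraries came from Tfam fl/fl Foxp3 Yfp-Cre/+ mice and the 3 control libraries from Tfam fl/+ Foxp3 Yfp-Cre/+ mice. All mice were thus heterozygous for the Foxp3-driven YFP-Cre allele, and the control cells also carried 1 floxed Tfam allele, which is lost where Cre acts. Since Foxp3 lies on the X chromosome, which is silenced at random in females, the YFP gate selects the cells in which the Cre allele is active, and the animals keep Treg that do not express it. The series addresses the role in Treg of TFAM, which coats mitochondrial DNA (mtDNA) and without which that DNA is not transcribed.

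Complex I oxidises NADH, passes the electrons to ubiquinone and pumps protons across the inner mitochondrial membrane. It is L-shaped. The nuclear-encoded core subunits sit in the matrix arm, where they hold the flavin and the iron-sulphur clusters, while the core of the membrane arm is encoded by mtDNA and therefore depends on TFAM for its transcription. Accessory subunits surround both arms, and assembly factors build the complex but do not stay in it. Treg are known for their reliance on mitochondrial respiration.

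Promoter sequences of 4 members are shown because they carry the short motifs found in the family or belong to the members on which the results below turn: Ndufa4, which had the smallest p-value, Ndufs4, whose KO and control levels did not overlap, Ndufs7, whose mean level was nearly the same in both genotypes, and Ndufaf4, the member with the highest fold change. Each runs 5′ to 3′ on the gene's strand, from 250 bases before to 50 bases after the gene's start, from RefSeq on build GRCm38.p6. Capitals mark matches to the NRF1 motif (GCATGCGC), the ETS motif (CCGGAAGT) and the YY1 motif (AAGATGGCG), each searched on both strands, and the NRF1 motif can overlap itself on the opposite strand.
Ndufa4, chr6:11907401-11907700 (- strand): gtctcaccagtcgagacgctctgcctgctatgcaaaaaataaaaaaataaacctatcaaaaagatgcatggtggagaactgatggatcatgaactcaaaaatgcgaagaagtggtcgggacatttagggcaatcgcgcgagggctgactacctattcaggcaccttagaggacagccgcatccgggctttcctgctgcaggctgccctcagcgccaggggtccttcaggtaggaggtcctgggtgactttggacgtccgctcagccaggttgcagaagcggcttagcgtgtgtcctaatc
Ndufs4, chr13:114388045-114388344 (- strand): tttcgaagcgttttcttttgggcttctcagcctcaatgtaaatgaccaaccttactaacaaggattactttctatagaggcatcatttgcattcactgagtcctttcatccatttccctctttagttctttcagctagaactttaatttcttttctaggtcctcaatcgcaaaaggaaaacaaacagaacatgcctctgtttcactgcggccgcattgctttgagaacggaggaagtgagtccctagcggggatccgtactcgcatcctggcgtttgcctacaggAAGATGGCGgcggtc
Ndufs7, chr10:80249199-80249498 (+ strand): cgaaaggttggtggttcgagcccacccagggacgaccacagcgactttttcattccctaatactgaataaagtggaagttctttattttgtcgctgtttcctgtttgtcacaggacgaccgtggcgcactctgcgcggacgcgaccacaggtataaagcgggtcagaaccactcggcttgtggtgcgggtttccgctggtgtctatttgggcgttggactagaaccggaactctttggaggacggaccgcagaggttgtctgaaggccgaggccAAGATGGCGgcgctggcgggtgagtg
Ndufaf4, chr4:24897833-24898132 (+ strand): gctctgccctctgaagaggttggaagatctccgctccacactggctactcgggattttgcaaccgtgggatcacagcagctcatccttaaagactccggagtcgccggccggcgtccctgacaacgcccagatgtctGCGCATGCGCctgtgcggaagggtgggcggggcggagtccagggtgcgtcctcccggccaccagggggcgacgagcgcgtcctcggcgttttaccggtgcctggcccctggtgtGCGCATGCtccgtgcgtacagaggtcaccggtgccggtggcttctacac
In these sequences the capitals in Ndufs4 and Ndufs7 are YY1 matches just after the gene's start, those in Ndufaf4 are NRF1 matches, and Ndufa4 held none of the 3 motifs.

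Promoters were found in the RefSeq table for 40 of the 46 members (42 promoters, since a gene can have more than 1). The YY1 motif, read by a zinc finger factor known to act at respiratory chain genes, was present in 6 of the 42 (14.3%), against 1.4% of all 32851 promoters of this length. All 6 matches lay on the gene's own strand, 10 to 35 bases after the start, in Ndufa9, Ndufaf8, Ndufc1, Ndufs4, Ndufs6 and Ndufs7. The NRF1 motif, named for a factor known to act at nuclear genes of mitochondrial proteins, was present in 5 (11.9%), against 2.71% of all promoters. These were the promoters of Ndufa6, Ndufa8, Ndufa11, Ndufaf4 and Ndufaf5. The ETS motif was present in 1 (2.38%, Ndufs3), against 3.89%, and the SP motif GGGCGG, which is not in capitals above, in 22 (52.4%), against 35.7%. Matching letters are a description of these windows and were not tied to binding.

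The libraries held between 19087757 and 23794028 gene counts in KO and between 21419772 and 27490253 in control, and the 46 members took 0.225% to 0.253% of the counts in KO and 0.242% to 0.265% in control. Levels are given as CPM, counts scaled to the library total, after TMM scaling, which matches libraries by the bulk of their genes. CPM is not corrected for transcript length, so levels of different genes are not compared. Tfam, the targeted gene, had 15.6, 14.4 and 16.5 CPM in KO replicates 1 to 3, against 25.9, 30.6 and 42.4 CPM in control replicates 1 to 3 (log2 fold change -1.09 ± 0.17 SE, edgeR quasi-likelihood test, adjusted p = 0.020). When single libraries were left out, the adjusted p of Tfam passed above the threshold for control replicate 2 (0.0551) and for each of the KO replicates (0.109, 0.0866 and 0.0844 for numbers 1 to 3), and it was 0.123 without both libraries numbered 2. The 6 Treg markers summed to 2292 to 2491 CPM in KO and 2264 to 2555 CPM in control, with 0 of 6 called. The 10 macrophage markers summed to 442 to 1216 CPM in KO and 397 to 855 CPM in control, highest in replicate 2 of both genotypes, with 0 called and 0 at 0. The 5 B cell markers summed to 397 to 432 CPM in KO and 548 to 577 CPM in control, with 1 called lower and 0 at 0. That gene was Ighm, which made up nearly all of the sum, with 380, 386 and 419 CPM in KO and 531, 545 and 563 CPM in control. The part of these markers in the results below was not tested, but the values without both libraries numbered 2 are given. In bulk RNA, fewer cells of a type and less RNA per cell cannot be told apart. The 7 mtDNA-encoded core genes, mt-Nd1 to mt-Nd6 and mt-Nd4l, were listed at 0 in every library, so the membrane-arm core was not measured.

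No Nduf gene passed the unblocked edgeR test between KO and control, while edgeR with the replicate number as a block called 2 lower (Ndufa4 and Ndufb9, adjusted p = 0.0295 and 0.0398), against 4.39% of all tested genes. Of the 46 members, 45 passed the filter on low counts and were tested, and edgeR called 0 lower and 0 higher at an adjusted p under 0.05, against 1.39% of all 11990 tested genes called lower, 0.1% called higher and 1.49% called in either direction. At an unadjusted p under 0.05, 3 members were lower (Ndufa4, Ndufb9 and Ndufs5), against 7.22% of all tested genes, and 0 were higher, against 5.4%. DESeq2 and limma-voom called 0 members as well, and DESeq2 called 2.25% of all its tested genes lower. The 6 levels separated by genotype for 4 members, all lower in KO (Ndufa4, Ndufb9, Ndufb8 and Ndufs4), against 10.4% of all tested genes that were lower without overlap, and for 0 higher, against 8.63%. Members were thus lower in no larger a share than genes in general by either rule. Ndufb8 and Ndufs4 were chosen for mention after their values were known.

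The fitted values were small and mostly on one side of 0. The log2 fold changes of the 45 members lay between -0.29 (Ndufs5) and 0.16 (Ndufaf4), with a median of -0.11 and quartiles at -0.13 and -0.053. Over all tested genes the median was -0.0045 and the quartiles were -0.11 and 0.11. A fitted value below 0 was found for 41 of the 45 members, against 51.2% of all tested genes. The 4 exceptions were Ndufaf4, Ndufv1, Ndufaf8 and Ndufs7. The 95% intervals of all 45 members excluded a 2-fold change in either direction, as did those of 10366 of the 11990 tested genes. Among members the lowest bound was -0.67 (Ndufaf6) and the highest 0.44 (Ndufaf4). A miss at the threshold does not show that levels were equal, and the members' intervals give the sizes that the 6 libraries allow. The members share libraries and are not independent of each other, so the count of values below 0 has no test.

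**Figure D1:**
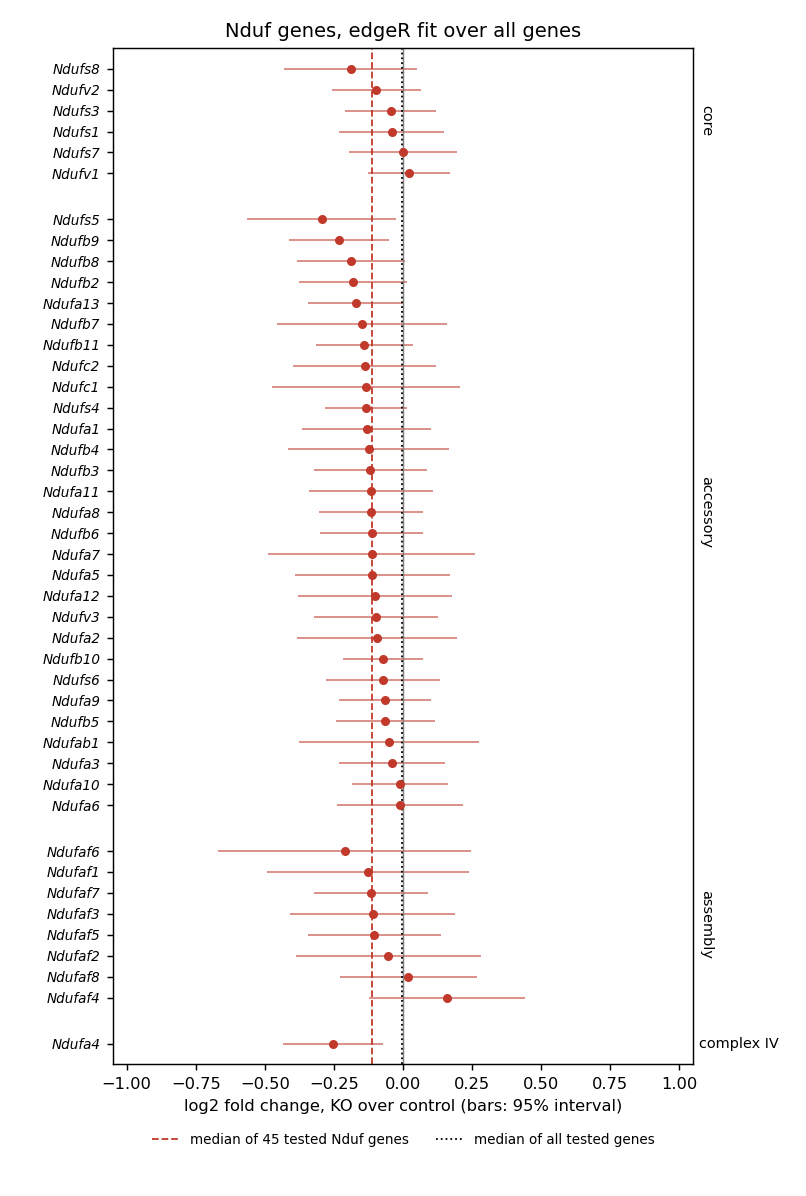
Log2 fold change of KO over control for 44 of the 45 tested Nduf genes (horizontal axis; points are edgeR estimates and bars their 95% intervals), grouped by role, with dashed and dotted lines at the medians of all 45 (-0.11) and of all tested genes (-0.0045). Most points lie to the left of 0, from -0.29 for Ndufs5 to 0.16 for Ndufaf4, and most bars cross 0.

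The 7 nuclear core subunits had the median closest to 0 of the 3 roles, except without control replicate 2 or 3, where the assembly factors were closer. Their median log2 fold change was -0.041, with 5 of 7 below 0, 0 called, and 95% intervals that together ran from -0.43 to 0.19.

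Ndufv1, which binds NADH and the flavin, had 122, 127.9 and 128 CPM in KO, against 121, 119 and 132 CPM in control (log2 fold change 0.022 ± 0.065 SE, 95% interval -0.13 to 0.17, adjusted p = 0.927 by edgeR). The groups overlapped, and the highest value was in control replicate 3. Ndufs7, which holds the last iron-sulphur cluster before ubiquinone, had 103, 101 and 84.98 CPM in KO, against 99.98, 97.7 and 92.1 CPM in control. The means were 96.5 ± 10.1 CPM in KO and 96.6 ± 4.05 CPM in control (SD, n = 3 each), and replicate 3 was the lowest of both groups. Its 95% interval ran from -0.19 to 0.19.

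Ndufs8, an iron-sulphur subunit of the matrix arm, had the lowest value among the core subunits. It stood at 63.5, 65.6 and 50.5 CPM in KO, against 68.6, 72.8 and 63.5 CPM in control (-0.19 ± 0.11, interval -0.43 to 0.051, adjusted p = 0.502). KO replicate 3 was well below the other KO libraries, and the log2 fold change was -0.082 without it. Ndufv2, the partner of Ndufv1, stood at 77.6 ± 0.873 CPM in KO and 82.9 ± 6.31 CPM in control (SD, n = 3 each; log2 fold change -0.097 ± 0.070). Ndufs1, which holds several iron-sulphur clusters, had a log2 fold change of -0.041, and Ndufs3, a scaffold subunit of the matrix arm, of -0.044.

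**Figure D2:**
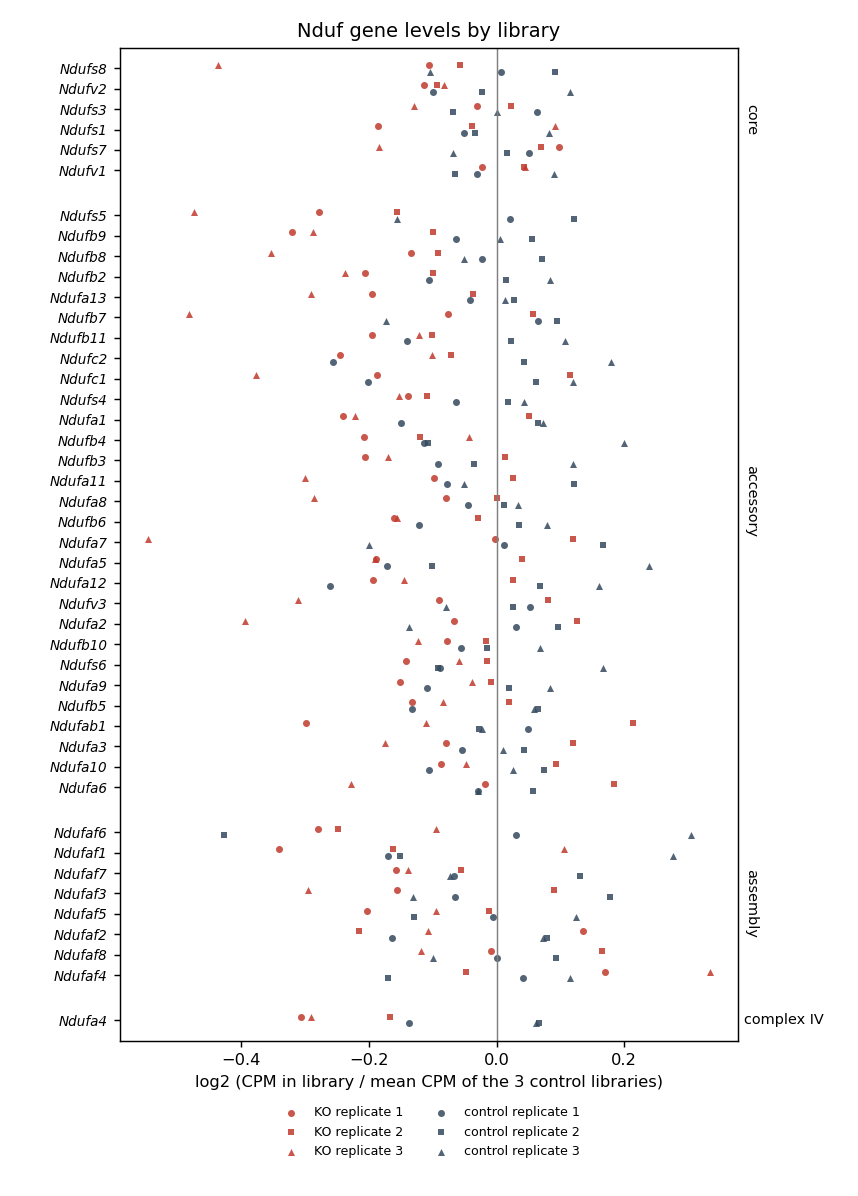
Level of 44 of the 45 tested Nduf genes in each library as log2 of its CPM over the mean of the 3 control libraries (horizontal axis), with KO libraries in red, control libraries in dark blue, and marker shapes for replicates 1 to 3. Counted over all 45 genes, the genotypes overlap for 41, and KO replicate 3 (red triangles) is the lowest library for 22. The lowest library was not counted over all tested genes.

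The 29 accessory subunits had a median log2 fold change of -0.12, with 29 of 29 fitted below 0 and 0 called (adjusted p at least 0.276). Their values ran from -0.29 to -0.011, and 2 of 29 were lower at an unadjusted p under 0.05, against 7.22% of all tested genes. Ndufb9, a membrane-arm subunit, had 45.8, 53.4 and 46.8 CPM in KO replicates 1 to 3, against 54.7, 59.4 and 57.4 CPM in control replicates 1 to 3. Every KO library lay below every control library, although KO replicate 2 came close to control replicate 1. The fitted level was 14.9% below control (log2 fold change -0.23 ± 0.079 SE, 95% interval -0.41 to -0.052, adjusted p = 0.276).

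Ndufs5, a small membrane-arm subunit, had 12.9, 14.1 and 11.3 CPM in KO, against 15.9, 17.0 and 14.1 CPM in control (-0.29 ± 0.12, interval -0.57 to -0.024, adjusted p = 0.354). The groups met at KO replicate 2 and control replicate 3. RefSeq names a transcribed pseudogene copy of Ndufs5, and also of Ndufa11, so their reads may be shared. Reads may also be shared for Ndufa12, Ndufab1 and Ndufs6, which have named pseudogene copies. The named copies of Ndufb4 are protein-coding genes, and its reads may be shared too. Ndufb8, another membrane-arm subunit, had 43.3, 44.5 and 37.1 CPM in KO, against 46.7, 49.8 and 45.8 CPM in control (-0.19 ± 0.086, adjusted p = 0.414).

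Ndufs4, a matrix-arm subunit whose loss in mice is used as a model of Leigh syndrome, had 43.4, 44.3 and 43.0 CPM in KO, against 45.7, 48.4 and 49.3 CPM in control (-0.13 ± 0.065, interval -0.28 to 0.015, adjusted p = 0.446). The 3 KO values were close together and the groups did not overlap. Of the accessory subunits with the highest CPM, Ndufa13 (also known as GRIM-19) averaged 101 ± 9.03 CPM in KO and 114 ± 2.86 CPM in control (SD, n = 3 each; -0.17 ± 0.076, adjusted p = 0.405). It overlaps Tssk6 in the annotation. Other members with an overlapping gene are Ndufa1 (Rnf113a1), Ndufa2 (Tmco6), Ndufa4l2 (Shmt2), Ndufa9 (1700018A23Rik), Ndufa10 (Mir6900), Ndufaf2 (Gm52057), Ndufaf4 (Gm46848), Ndufaf5 (Gm52594), Ndufb11 (Rbm10), Ndufs1 (Ino80dos), Ndufs7 (n-TNgtt7) and Ndufv2 (Ankrd12 and Gm23264). Whether counting used strand is not given in the sources used here, so reads of overlapping genes may be shared. Ndufa6 averaged 109 ± 15.5 CPM in KO and 109.5 ± 3.79 CPM in control (-0.011 ± 0.10, adjusted p = 0.979), with KO replicate 2 the highest and KO replicate 3 the lowest of the 6 libraries. The remaining accessory subunits had log2 fold changes between -0.18 (Ndufb2) and -0.012 (Ndufa10).

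Members in whose promoter the YY1 motif was found reached neither end of the family's range. The 6 members without a promoter sequence were not searched. Among these were Ndufb9 (-0.23) and Ndufaf6 (-0.21), both near the low end, so the motifs of all low members are not known. The log2 fold change was -0.13 for both Ndufs4 and Ndufc1, -0.072 for Ndufs6, -0.065 for Ndufa9 and 0.019 for Ndufaf8, and Ndufs7 was near 0 as given above. The 5 genes with the NRF1 motif had values of -0.12 (Ndufa8 and Ndufa11), -0.10 (Ndufaf5), -0.011 (Ndufa6) and 0.16 (Ndufaf4).

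The 8 assembly factors had a median log2 fold change of -0.11, with 6 of 8 below 0 and 0 called (adjusted p at least 0.646). Ndufaf4, which acts early in assembly, had 17.6, 15.1 and 19.7 CPM in KO, against 16.1, 13.9 and 16.9 CPM in control (0.16 ± 0.12, interval -0.12 to 0.44, adjusted p = 0.649). The groups overlapped, and it was the 1 tested member whose fitted value stayed above 0 in all 14 alternative fits, between 0.064 (without KO replicate 3) and 0.26 (without KO replicate 2). Ndufaf7, a methyltransferase that acts during assembly, averaged 18.8 ± 0.714 CPM in KO and 20.4 ± 1.66 CPM in control (SD, n = 3 each; -0.12 ± 0.090, adjusted p = 0.646), and its log2 fold change was -0.048 without control replicate 2. Ndufaf6 had the fewest counts of the tested members and the widest interval. It stood at 4.43, 4.53 and 5.04 CPM in KO, against 5.49, 4.0 and 6.65 CPM in control (-0.21 ± 0.20, interval -0.67 to 0.25), and the KO values lay inside the control range. Its log2 fold change was -0.030 without control replicate 3 and -0.38 without control replicate 2. Ndufaf8, a partner of Ndufaf5, averaged 14.2 ± 1.43 CPM in KO and 14.01 ± 0.939 CPM in control (0.019 ± 0.11).

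The remaining 2 members carry the symbol for historical reasons. Ndufa4, now known as a subunit bound to cytochrome c oxidase (complex IV), had 55.5, 61.1 and 56.1 CPM in KO replicates 1 to 3, against 62.4, 71.9 and 71.6 CPM in control replicates 1 to 3. The groups did not overlap, but the highest KO and the lowest control library were close. The fitted level was 16.1% below control (-0.25 ± 0.079, interval -0.43 to -0.072, adjusted p = 0.231). Its paralog Ndufa4l2, known as a hypoxia-induced gene, failed the filter with 1 count in KO replicate 1 and 0 in the other 5 libraries, where 3 counts equal 0.109 to 0.157 CPM.

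With the replicate number as a block, edgeR called 2 of 45 members lower, against 4.39% of all tested genes. They were Ndufa4 (log2 fold change -0.25, adjusted p = 0.0295) and Ndufb9 (-0.24, adjusted p = 0.0398). DESeq2 with the same block called 0 members, against 2.55% of its tested genes called lower, and gave an adjusted p of 0.148 for Ndufa4 and 0.223 for Ndufb9. Over the 14 alternative fits the log2 fold change of Ndufa4 lay between -0.30 and -0.22 with an adjusted p between 0.0295 and 0.597, and that of Ndufb9 between -0.29 and -0.18 with an adjusted p between 0.0398 and 0.686.

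Split by position, the 19 tested membrane-arm subunits had a median log2 fold change of -0.13 with 19 of 19 below 0, and the 16 matrix-arm subunits a median of -0.084 with 14 of 16 below 0. All 7 nuclear core subunits are in the matrix arm. Membrane-arm values ranged from -0.29 to -0.012 and matrix-arm values from -0.19 to 0.022, so the lists overlapped widely, and their difference was not tested. Summed over the 19 genes, membrane-arm RNA was 974 ± 73.1 CPM in KO and 1058 ± 48.1 CPM in control (SD, n = 3 each). Summed matrix-arm RNA was 1241 ± 74.9 CPM in KO and 1289 ± 21.0 CPM in control. The 7 core subunits summed to 716 ± 20.6 CPM in KO and 734 ± 11.1 CPM in control, and the 8 assembly factors to 103 ± 2.77 CPM in KO and 106 ± 3.74 CPM in control. The KO and control libraries overlapped in all 4 sums, which have no test.

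The libraries also differed within each genotype. The median over the 45 members of the log2 ratio to the control mean was -0.14, -0.0064 and -0.15 in KO replicates 1 to 3 and -0.059, 0.028 and 0.061 in control replicates 1 to 3. The same median over 11968 tested genes with counts in every library lay between -0.014 and 0.0049 in all 6 libraries. KO replicate 2 thus lay within the control range, above control replicate 1. KO replicate 3 was the lowest of the 6 libraries for 22 of 45 members and KO replicate 1 for 15, while control replicate 3 was the highest for 20. The lowest and highest library were not counted over all tested genes. KO replicates 1 to 3 were below the control mean for 41, 23 and 41 of 45 members. Over all tested genes the counts were 6289, 5837 and 6071 of 11968.

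**Figure D3:**
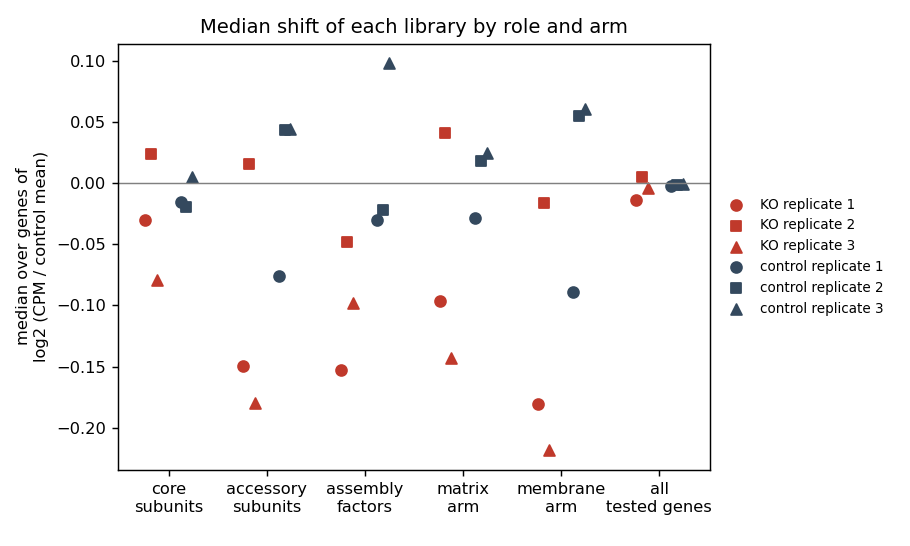
Median over genes of log2 CPM relative to the control mean (vertical axis) for each library, KO in red and control in dark blue, by role, arm and over all tested genes. KO replicate 2 lies within the control range for the accessory subunits and the membrane arm and above it for the core subunits and the matrix arm, and below it for the assembly factors, while KO replicates 1 and 3 lie below the control libraries in every role and in both arms.

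Within same-numbered pairs the median of the 45 members was -0.056 in pair 1, -0.012 in pair 2 and -0.23 in pair 3, beside -0.00080, 0.014 and -0.033 over all tested genes. KO was lower for 35, 27 and 43 of the 45 members, beside 6014, 5609 and 6661 of 11968 tested genes. For the accessory subunits the medians were -0.053, -0.027 and -0.26, and for the core subunits -0.014, 0.034 and -0.12. Pair 3 thus held the lowest value in every role, and in pair 2 the core subunits (0.034) and the assembly factors (0.031) were above 0.

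**Figure D4:**
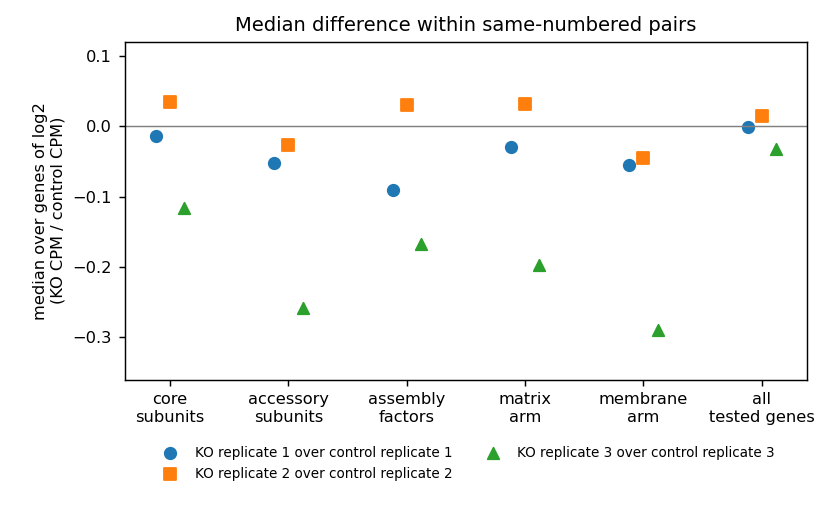
Median over genes of log2 CPM in KO over control (vertical axis) within each same-numbered pair of libraries, by role, arm and over all tested genes. Pair 3 (triangles) is lowest throughout, at -0.26 for accessory subunits, and pairs 1 and 2 lie between -0.091 and 0.034.

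Some members, picked out by their values, stood low or high in replicate 3 of both genotypes. Ndufa7, a matrix-arm subunit, had 60.1, 65.5 and 41.3 CPM in KO replicates 1 to 3, against 60.7, 67.6 and 52.5 CPM in control replicates 1 to 3, so that replicate 3 was the lowest of both genotypes. Its level in KO replicate 3 was 65.7% of the mean of the other KO libraries, and in control replicate 3 it was 81.8% of the mean of the other control libraries. The same shares were 72.0% and 83.9% for Ndufb7, a membrane-arm subunit, and 74.3% and 87.0% for Ndufa2, of the matrix arm. Ndufaf1, an assembly factor, went the other way, with 128% in KO replicate 3 and 135% in control replicate 3. Without KO replicate 3 the log2 fold change of Ndufa7 was 0.060 and that of Ndufa2 0.033, on the other side of 0. The coefficient of variation of the members had a median of 8.95% among KO libraries and 7.61% among control libraries.

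The other genes of the pathway were read from 2 further lists. Of the 13 assembly factors of complex I without an Nduf symbol, 12 were tested (Coa1 was not analysed here), 0 were called, and the median log2 fold change was -0.0020 with 6 of 12 below 0. The members with the highest CPM were Aifm1, an inner membrane flavoprotein needed for respiratory chain upkeep (-0.022 ± 0.085), Acad9, an acyl-CoA dehydrogenase relative (0.018 ± 0.068), and Ecsit, its partner in the same assembly complex (0.10 ± 0.079). Tmem186 was the 1 gene of the 12 whose groups did not overlap, and it was picked for that reason. Over all tested genes, 8.63% were higher without overlap and 10.4% lower. Tmem186 had 11.8, 12.8 and 12.3 CPM in KO, against 9.83, 10.9 and 10.6 CPM in control (0.24 ± 0.10, adjusted p = 0.364).

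Of the 11 regulators and partners of respiratory chain genes, 10 were tested and 0 called, with a median of 0.031 and 3 of 10 below 0. Pprc1, a coactivator of the PGC-1 family, had 143, 137 and 149.9 CPM in KO, against 128, 115 and 123 CPM in control, so every KO library was above every control library. Its log2 fold change was 0.23 ± 0.068 (adjusted p = 0.192 by edgeR), and both blocked fits called it higher, with an adjusted p of 0.0302 in edgeR and 0.0493 in DESeq2. Across the whole table these blocked fits called 236 and 138 genes higher, against 12 and 76 without the block. Over all 14 alternatives the adjusted p of Pprc1 lay between 0.0302 and 0.603. Tfb2m, a factor of mtDNA transcription, was picked for the same separation of the groups. It had 10.7, 11.1 and 9.97 CPM in KO, against 8.99, 8.68 and 9.27 CPM in control (0.24 ± 0.11, adjusted p = 0.394). Pprc1 and Tfb2m were the 2 of 10 tested genes that were higher without overlap, against 8.63% of all tested genes. Yy1 averaged 144 ± 32.8 CPM in KO and 161 ± 42.8 CPM in control (-0.16 ± 0.21), and Cox7a2l, which links complexes III and IV in supercomplexes, 116 ± 8.31 CPM in KO and 114 ± 20.7 CPM in control (0.023 ± 0.12). Ppargc1a, which encodes the coactivator PGC-1 alpha, failed the filter with 9 counts over the 3 KO libraries and 1 over the 3 control libraries.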

How the data were processed

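RNA from 3 KO and 3 control pools of sorted Treg was analysed. ATAC-seq samples were not analysed here. The values were read counts per Ensembl gene, deposited by the authors as 1 table and described in the labels as HTSeq counts. The submitters' processing notes name HISAT2, HTSeq, DESeq2 and other tools; their versions, the annotation and the strand setting are not given here, and mm10 and mm9 are both named with no role, so promoter coordinates are those of RefSeq and not of the counts. Symbols were matched for 22522 of 22553 IDs.

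The test was edgeR 4.0.16 under R 4.3.3 (filterByExpr with minimum count 10 and minimum total 15, TMM factors between 0.990 and 1.03, quasi-likelihood F test), adjusted by the Benjamini-Hochberg method over all 11990 tested genes, with 0.05 as the threshold for a call. SE (standard error) and 95% intervals of log2 fold changes follow from the F statistic. DESeq2 1.42.0, limma-voom (limma 3.58.1), other scalings, no filter, a replicate block and left-out libraries were alternatives. The equivalent of 3 counts covers counting error only. The labels do not say whether pools were separate litters or days, so p-values measure the spread between pools, which may be partly technical. Deviations of same-numbered KO and control libraries from their group means correlated at 0.30, 0.58 and 0.54 across genes for numbers 1 to 3. The numbers were therefore taken to pair the samples in the blocked fits and in the values within pairs. The main test used no block, so its SE, 95% intervals and adjusted p do not take the pairs into account. Members, lists, tests and the rule for named genes (called members, the 5 lowest and 5 highest fold changes, the 2 highest CPM in each role, separated groups with an absolute log2 fold change of at least 0.2, and the 3 highest CPM in each further list) were chosen with earlier results of these data known. The values of 1 member are not reported here, although it enters the fits, medians and counts.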

Additional observations from a re-analysis of the deposited data

How the results depend on the processing

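EdgeR with the replicate block called 2 Nduf genes lower (Ndufa4, log2 fold change -0.25, and Ndufb9, -0.24); every other alternative fit, single libraries left out included, called 0. The block changed no other call among the Nduf genes; it called Pprc1 higher (0.23, and 0.24 in DESeq2 with the block).

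Across the whole table, edgeR called 167 genes lower and 12 higher. The lower count was 264 in DESeq2, 526 in edgeR with the replicate block, 300 in DESeq2 with the block, 54 without both libraries numbered 2, and 26 (KO replicate 1 left out) to 166 with single libraries left out, with 61 and 63 for the other KO libraries and 84 and 82 for control replicates 1 and 2. The higher count was 76, 236, 138 and 0 in the same fits, 3 in limma-voom, 7 with library totals only, and 0 to 10 with single libraries left out.

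The median of the tested Nduf genes stayed below 0 in all 14 fits. With single libraries left out it ranged from -0.15 to -0.044, the highest being without control replicate 3, and 35 (without KO replicate 3) to 42 of 45 members were below 0. The core median was -0.0044 without KO replicate 3 and -0.0075 without control replicate 1. The assembly median stood at -0.031 (control replicate 2 left out), -0.030 (control replicate 3), -0.064 (KO replicate 1) and -0.067 (KO replicate 3). The matrix-arm median was -0.029 without control replicate 3, and -0.047 and -0.039 with the same KO libraries left out. The accessory median ranged from -0.18 without KO replicate 2 to -0.072 without control replicate 3, and the membrane-arm median from -0.18 to -0.083 for the same libraries. Without both libraries numbered 2 the Nduf median was -0.15. The other scalings and tests kept it between -0.12 and -0.10, with medians of all genes between -0.017 and 0.0030.

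Of 168 values under the alternatives of the Nduf genes picked by the rule for named genes, 152 kept direction and side of the threshold. The sign changed in 14, in Ndufa6, Ndufaf8, Ndufs7 and Ndufv1. Members outside that rule also changed sign in some fits, among them Ndufa2, Ndufa7, Ndufa10, Ndufaf1, Ndufs1, Ndufs3 and Ndufs6. Ndufa10 was below 0 in 10 of the 14 fits. Ndufs7 was -0.0038 in limma-voom, -0.013 with library totals only, -0.0045 with the block and -0.028 without both libraries numbered 2, where Ndufv1 was -0.021, Ndufaf8 -0.013, Aifm1 0.068 and Cox7a2l -0.052. With single libraries left out, the values ranged for Ndufs7 from -0.045 to 0.083, Ndufv1 from -0.010 to 0.069, Ndufaf8 from -0.051 to 0.081, Ndufa6 from -0.11 to 0.086, Acad9 from -0.0056 to 0.058, Aifm1 from -0.083 to 0.054, Cox7a2l from -0.062 to 0.18 and Yy1 from -0.36 to 0.0042. The causes of these changes were not tested. Ndufaf6 had the fewest counts of the tested members and Ndufa4l2 failed the filter. The part of depth in the wide interval of Ndufaf6 was not tested.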
